A study of Schizosaccharomyces pombe with 8 samples.

Results

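The cytosolic large ribosomal subunit genes of fission yeast, named rpl with a number, were examined for histone H3 and for H3 trimethylated at lysine 4 (H3K4Me3) at their 5′ ends. The members were the protein-coding genes with such a symbol in the reference annotation (ASM294v3) on chromosomes II and III and on chromosome I below 3.75 Mb, where the probe positions fit that assembly. The genome has 76 such genes, 68 lie in that part, and 67 of 4276 genes with a value carried at least 1 usable probe. The symbol rpl803 had none. By its annotation rpl701 is a subunit of RNase MRP with likeness to ribosomal protein L7, and rpl44 belongs to the L28e family, and both were kept since the symbol was the rule.

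The arrays came from *Schizosaccharomyces pombe* strain PN2159, an h+/h+ diploid homozygous for *pat1-114* and carrying ade6-M210 over ade6-M216, in which a shift to 34 °C starts meiosis. The +N cells stayed in nitrogen-rich medium, were arrested in G1 with the mating pheromone M-factor, and were taken 30 min after the shift. The −N cells were starved of nitrogen, given nitrogen again, and taken 120 min after the shift. Both were meant to be at the start of premeiotic S phase, and the pheromone, the medium and the time all differ between them, so these cannot be told apart. For each antibody and each condition there were 2 arrays of ChIP DNA against input DNA, 8 in all. The strain is a single one. The study speaks of biological replicates for these profiles, and the labels do not say how they were prepared. All replicate 1 arrays shared slide 1 and all replicate 2 arrays slide 2. The share of probes whose ChIP signal cleared the background was 44.6% to 89.2% on slide 1 and 90.2% to 98.5% on slide 2. Among the members, 89.5% of H3 and 91.8% of H3K4Me3 ChIP measurements passed that mark.

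A ribosome's large subunit joins amino acids at the peptidyl transferase centre and passes the chain out through a tunnel. Most of its proteins are encoded in fission yeast by a pair of paralogues, separate genes for nearly the same protein, and their transcription is known to follow nitrogen supply through the TORC1 kinase. H3K4Me3 is laid down by the Set1 complex around the 5′ ends of transcribed genes, whereas histones are sparse over the promoter itself. Promoters of these genes in fission yeast are known for a short element, HomolD, which takes the place of a TATA box, and for a further one, HomolE. Levels below are log2 ratios of ChIP to input, centred on the median probe of each array and averaged over a gene's probes in a window that opens 250 bp upstream of its annotated 5′ end and closes 750 bp downstream. A gene had 1 to 5 probes (median 3), and 195 probes served the 67 genes. The arrays measured whole cultures, so fewer cells with the mark and less mark in each cell cannot be told apart.

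The promoters are shown first, since every position in the results is measured from them. The exact HomolD core CAGTCACA, on either strand from 250 bp upstream to 50 bp downstream of the 5′ end, was present at 45 of 68 members (66.2%) and at 116 of all 4365 genes in the same part (2.66%). The HomolE core, 10 letters on either strand, was found at 25% of members and 1.33% of all genes, and TATAAA at 23.5% of members and 48.5% of all genes. Each motif was searched for on its own, and matches were allowed to overlap. The sequences below are the 100 bases before the annotated 5′ end, read 5′ to 3′ in the direction of the gene from ASM294v3 (RefSeq), with exact HomolD in capitals or, where there is none, a form with 1 mismatch that begins between 80 and 40 bp upstream. They belong to the 4 paralogue pairs that differed most in H3K4Me3, to rpl35, the neighbour of rpl902, to rpl14 and rpl3703, the highest members with rpl902, and to rpl1802, which with rpl501 was called in a fit described further on.
rpl902 (chrIII:89680-89779, + strand): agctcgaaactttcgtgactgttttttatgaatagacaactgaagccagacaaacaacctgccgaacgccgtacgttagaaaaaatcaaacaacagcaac
rpl901 (chrI:2284229-2284328, − strand): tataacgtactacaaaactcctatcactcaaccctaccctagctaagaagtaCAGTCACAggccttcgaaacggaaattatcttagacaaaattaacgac
rpl35 (chrIII:89577-89676, − strand): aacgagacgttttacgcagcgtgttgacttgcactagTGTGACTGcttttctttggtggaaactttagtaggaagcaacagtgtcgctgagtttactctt
rpl1202 (chrIII:627824-627923, − strand): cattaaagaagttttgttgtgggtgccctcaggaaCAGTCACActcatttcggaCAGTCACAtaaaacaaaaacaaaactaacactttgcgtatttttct
rpl1201 (chrIII:691647-691746, − strand): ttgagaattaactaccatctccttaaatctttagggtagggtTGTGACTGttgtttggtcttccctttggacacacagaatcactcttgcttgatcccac
rpl1002 (chrI:3744046-3744145, + strand): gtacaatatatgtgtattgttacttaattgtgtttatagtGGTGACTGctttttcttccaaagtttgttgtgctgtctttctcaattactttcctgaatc
rpl1001 (chrII:2081381-2081480, + strand): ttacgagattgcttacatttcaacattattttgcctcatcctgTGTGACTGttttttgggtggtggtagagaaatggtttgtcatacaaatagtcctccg
rpl502 (chrII:3365645-3365744, − strand): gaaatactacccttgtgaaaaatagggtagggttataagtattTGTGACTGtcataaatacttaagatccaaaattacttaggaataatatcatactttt
rpl501 (chrI:3410845-3410944, + strand): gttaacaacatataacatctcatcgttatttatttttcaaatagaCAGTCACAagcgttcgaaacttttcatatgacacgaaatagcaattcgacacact
rpl14 (chrI:2794801-2794900, + strand): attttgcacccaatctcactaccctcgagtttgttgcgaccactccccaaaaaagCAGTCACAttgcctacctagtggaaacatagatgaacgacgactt
rpl3703 (chrI:1275389-1275488, + strand): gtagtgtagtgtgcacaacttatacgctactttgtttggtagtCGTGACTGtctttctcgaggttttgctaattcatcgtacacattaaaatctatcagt
rpl1802 (chrI:1285516-1285615, + strand): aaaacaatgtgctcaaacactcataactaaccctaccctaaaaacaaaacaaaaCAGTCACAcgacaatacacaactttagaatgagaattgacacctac

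The capitals fall at nearly the same place in each line except that of rpl902, which has none by this rule. Its line holds cgtgactg, which is CAGTCACG on the other strand, beginning just beyond 80 bp upstream. An exact match of rpl902 lies further upstream than the bases shown. Of the 48 exact HomolD matches at members, 45 (93.8%) began between 80 and 40 bp upstream of the 5′ end, at a median of 50 bp upstream. At small subunit genes 96.7% of 30 matches began there, and at the other genes 54.8% of 42 matches. A match between divergent genes counts for each of them, as at rpl902 and rpl35. The matches of other genes thus include some that belong to a member as well, such as that of ubi2 beside rpl14. With 1 mismatch allowed in that stretch, 65 of 68 members (95.6%) and 46 of 48 small subunit genes (95.8%) held the element, against 6.19% of all 4365 genes. Of the 22 members with the mismatched form only, 14 read CAGTCACG. The members with neither form in that stretch were rpl902, rpl2501 and rpl701. The genes rpl902 and rpl35 lie back to back with 204 bp between their 5′ ends, and 2 probes served both. A match is a description of the letters and was not set against binding of any factor.

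**Figure D1:**
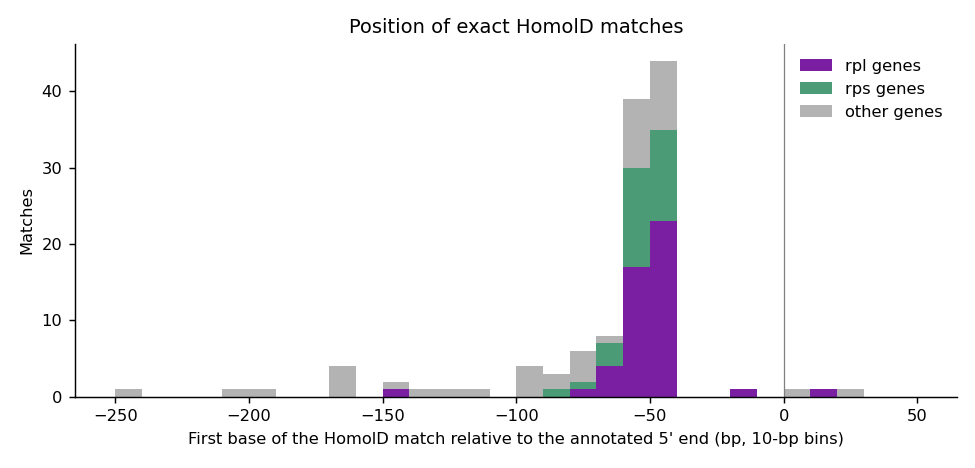
First base of each exact HomolD match relative to the annotated 5′ end (horizontal axis, bp, 10-bp bins) against the number of matches (vertical axis), stacked for rpl genes (48 matches), rps genes (30) and other genes (42). Most rpl and rps matches lie between 80 and 40 bp upstream. A match between divergent genes is counted for each gene.

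Around these promoters the members had a deep trough of H3 and a high rise of H3K4Me3. In 100-bp bins the mean H3 signal of member probes was lowest 150 bp upstream on all 4 arrays, at −1.5 and −1.22 in +N cells and −1.31 and −1.36 in −N cells, from 17 probes. Over all genes the lowest bin was −1.20 and −0.84 in +N cells and −0.93 and −0.89 in −N cells. H3K4Me3 at member probes was highest 150 bp downstream in both +N arrays, at 3.75 and 4.05, and in −N replicate 1, at 3.24. In −N replicate 2 it was highest 350 bp downstream, at 3.12 from 14 probes. Over all genes the highest bin was 2.54 and 3.16 in +N cells and 2.26 and 2.63 in −N cells. At its summit the mark lay above that of all genes on each array, and H3 over the promoter lay below.

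**Figure D2:**
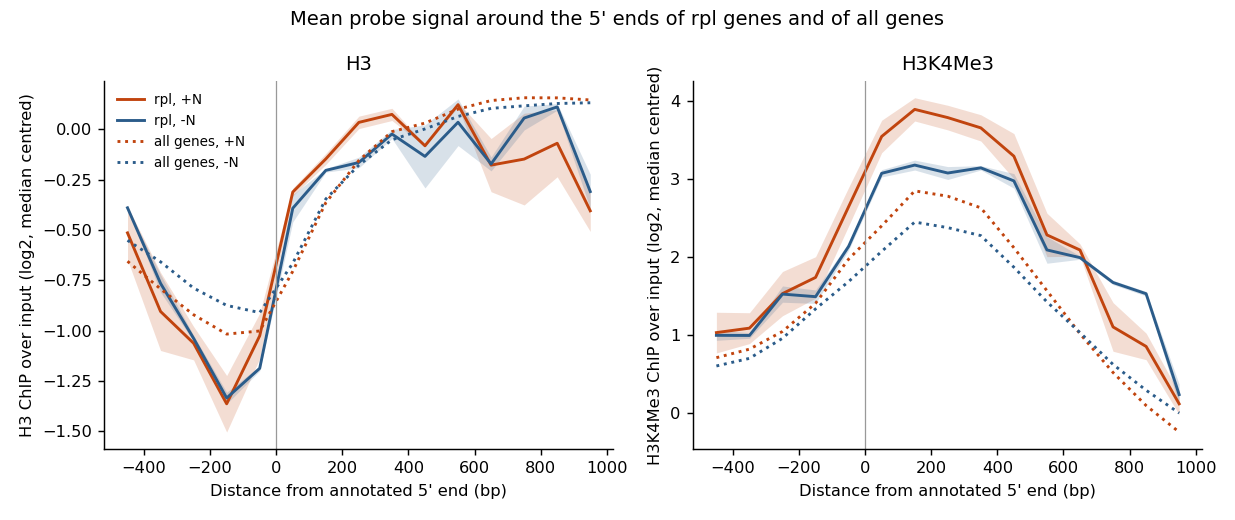
Mean log2 ChIP over input of probes in 100-bp bins (vertical axes, median centred) against distance from the annotated 5′ end (horizontal axes, bp), for H3 and H3K4Me3. Solid lines are rpl genes, dotted lines all genes, lines are means of 2 arrays and the bands span the 2 arrays of rpl genes. The rpl lines reach a lower H3 trough 150 bp upstream and a higher H3K4Me3 summit than the dotted lines.

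Split by stretch, the median H3 level of members from 250 bp upstream to the 5′ end was −1.15 ± 0.14 in +N cells and −1.09 ± 0.04 in −N cells (SD, n = 2 arrays each, 53 genes). All genes there had −0.97 ± 0.26 in +N and −0.83 ± 0.03 in −N cells. In the first 250 bp downstream the order turned, with members at −0.14 ± 0.03 in +N and −0.24 ± 0.12 in −N cells (40 genes), against −0.43 ± 0.11 in +N and −0.41 ± 0.06 in −N cells for all genes. H3K4Me3 in the same stretch was 3.87 ± 0.14 in +N and 3.17 ± 0.07 in −N cells at members, against 2.98 ± 0.48 in +N and 2.58 ± 0.24 in −N cells at all genes. From that stretch to 750 bp downstream members lay below all genes in H3 again. They had −0.04 ± 0.07 in +N and −0.09 ± 0.05 in −N cells (58 genes). All genes there had 0.10 ± 0.04 in +N and 0.05 ± 0.03 in −N cells. The median H3 of members therefore stood below or above that of all genes by stretch, and the genes with probes in each stretch differ. Whether probe position accounts for the H3 level of a member was not tested. H3 levels corrected for probe distance are given further on.

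Over the whole window, the H3K4Me3 level of the members was high. The median over the 67 genes was 2.57 and 3.02 in the +N arrays and 2.29 and 2.49 in the −N arrays, against 1.88 and 2.45 in +N and 1.82 and 2.07 in −N for all genes. The median of members stood 0.63 ± 0.08 above that of all genes in +N cells and 0.44 ± 0.03 above it in −N cells (SD, n = 2). On the 4 arrays, between 48 and 54 of the 67 members lay above the median gene. No test was made of this difference. The median GC content of the window was 40.2% at members and 35.6% at all genes, and its part in the levels was not tested.

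H3 itself was close to the average gene. The medians were −0.46 and −0.32 in +N cells and −0.44 and −0.40 in −N cells, which is 0.08 ± 0.02 below all genes in +N and 0.12 ± 0.02 below in −N cells. With probes from the 5′ end to 500 bp downstream only, the members stood above all genes instead, by 0.13 in +N and 0.07 in −N cells. The H3K4Me3 level minus the H3 level of the same replicate was 3.25 ± 0.15 in +N and 2.92 ± 0.09 in −N cells at members, against 2.52 ± 0.32 in +N and 2.28 ± 0.14 in −N cells at all genes.

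Among other gene lists, the 48 small subunit (rps) genes stood 0.74 ± 0.25 above all genes in H3K4Me3 in +N and 0.55 ± 0.10 in −N cells. In H3 these genes stood 0.18 ± 0.07 below all genes in +N and 0.24 ± 0.07 below in −N cells. The lists that follow are given for H3K4Me3. The 6 genes of the stalk P proteins, which recruit translation factors to the large subunit, stood 1.05 ± 0.15 above in +N and 1.03 ± 0.30 in −N cells. The 36 mitochondrial ribosomal protein genes stood only 0.21 ± 0.01 above in +N and 0.16 ± 0.01 in −N cells. For 36 factors that assemble the large subunit the median lay 0.25 ± 0.05 above that of all genes in +N and 0.47 ± 0.10 above it in −N cells, and for 16 genes of TORC1 signalling 0.21 ± 0.01 in +N and 0.32 ± 0.08 in −N cells.

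**Figure D3:**
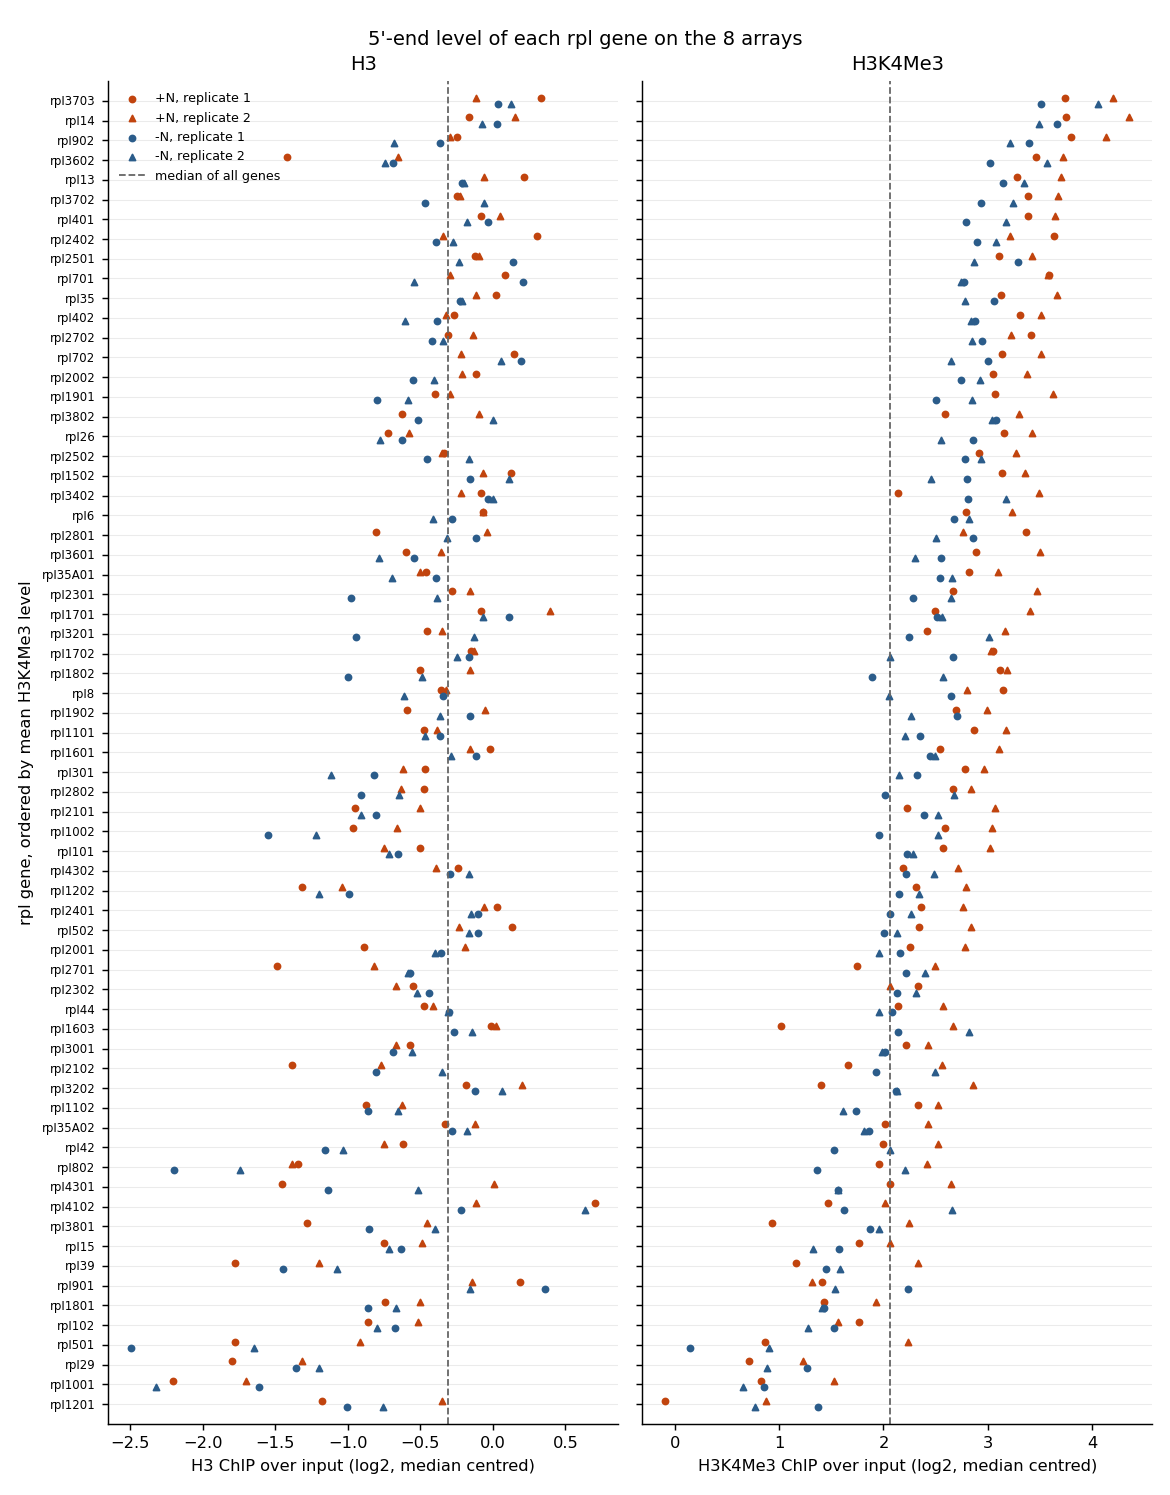
Level of each of the 67 rpl genes (rows, ordered by mean H3K4Me3) on the 8 arrays, as log2 ChIP over input (horizontal axes, median centred) for H3 and H3K4Me3. Orange points are +N and blue points −N arrays, circles replicate 1 and triangles replicate 2, and the dashed line is the median of all genes over 4 arrays. H3K4Me3 spans 0.73 to 3.88 between genes, more than the arrays of most genes differ.

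The members covered a wide range. Mean H3K4Me3 over 4 arrays ran from 0.73 at rpl1201 to 3.88 at rpl3703, with 19 members above the 90th percentile of all genes and 0 below the 10th. Levels in +N and −N cells went together over the 67 genes, with Pearson's r = 0.88 and Spearman's rho = 0.89 for H3K4Me3. These are descriptions, the values of a gene coming from the same probes. Mean H3 and mean H3K4Me3 had r = 0.59 (rho = 0.50), and the same probes enter both. Whether the arrays of the antibodies share input DNA was not examined.

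The highest H3K4Me3 belonged to genes of different places in the subunit. rpl3703, for the zinc-binding protein eL37, had 3.74 and 4.20 in +N and 3.51 and 4.06 in −N cells from 1 probe 325 bp downstream. rpl14, for eL14, had 3.75 and 4.35 in +N and 3.66 and 3.49 in −N cells. rpl902, for uL6, had 3.80 and 4.13 in +N and 3.39 and 3.22 in −N cells. Of its 3 probes, 2 also serve rpl35, whose 5′ end is 204 bp away. In rpl14 the +N arrays lay above both −N arrays, as in rpl902, while those of rpl3703 overlapped. The next gene, rpl3602 for eL36, had 3.46 and 3.72 in +N and 3.02 and 3.56 in −N cells. Of its 2 probes, the one 144 bp downstream has a near copy elsewhere, and 2 of its spots were saturated. The 4 neighbours in this order did not differ beyond the spread of their arrays.

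The lowest were rpl1201, rpl1001, rpl29 and rpl501. rpl1201 encodes uL11, which forms the base of the stalk, and had −0.09 and 0.87 in +N and 1.37 and 0.77 in −N cells. On slide 1 neither of its 2 probes was well above background in either condition, and the values above background are those of slide 2, 0.87 in +N and 0.77 in −N cells. rpl1001, for the protein uL16 that reaches towards the peptidyl transferase centre, had 0.82 and 1.53 in +N and 0.85 and 0.65 in −N cells. The arrays of each overlapped. rpl29, for eL29, had 0.71 and 1.23 in +N and 1.27 and 0.89 in −N cells. Of its 3 probes, 1 was well above background in +N replicate 1 and 2 in −N replicate 1. rpl501, for uL18 which binds the 5S ribosomal RNA, had 0.87 and 2.24 in +N and 0.15 and 0.90 in −N cells. Probe position goes with this group. rpl1001 and rpl501 rest on 1 probe each, 81 and 32 bp upstream, in the H3 trough, and the probes of rpl1201 lie at 238 bp upstream and 696 bp downstream, on either side of the summit. When each probe was set against the mean of all genes' probes in the same 100 bp of distance, a correction chosen after seeing the data, these 4 were still the lowest members, at −0.86 for rpl1001, −0.79 for rpl501, −0.54 for rpl29 and −0.29 for rpl1201. With that correction the members stood 0.62 ± 0.04 above all genes in +N and 0.53 ± 0.13 in −N cells. In H3 the correction left the members 0.06 ± 0.01 below all genes in +N and 0.11 ± 0.04 below in −N cells.

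H3 was lowest at rpl1001, with −2.21 and −1.70 in +N and −1.61 and −2.32 in −N cells. It was next lowest at rpl501, with −1.78 and −0.92 in +N and −2.49 and −1.65 in −N cells. The −2.49 of −N replicate 1 came from a signal that was not well above background. The only probe of rpl802, for uL2, lies 13 bp upstream and gave −1.34 and −1.38 in +N and −2.20 and −1.74 in −N cells. All of these are single promoter probes. rpl29, with 3 probes, had −1.80 and −1.32 in +N and −1.35 and −1.20 in −N cells. On each H3 array of slide 1 only 1 of these 3 probes was well above background. H3 was highest at rpl4102, for the very small eL41, where the arrays were far apart, at 0.70 and −0.12 in +N and −0.22 and 0.63 in −N cells. Means of 0.09 followed at rpl3703 and at rpl1701, which encodes a protein along the exit tunnel, and 0.06 at rpl901. Neither of the 2 probes of rpl1701 was well above background for H3 on slide 1 in either condition. With the correction for probe distance the H3 order changed. rpl1001 was still lowest, at −1.01, followed by rpl4301 at −0.84 and rpl29 at −0.81. rpl501 then had −0.75 and rpl802 −0.71. Neither probe of rpl4301 was well above background for H3 in −N replicate 1. The highest was rpl14 at 0.43, and rpl4102 had 0.29.

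Between conditions, no member passed the test without a block. For H3, 0 of 4276 genes were called by limma at an adjusted p of 0.05 (0%), and 61 genes (1.43%), 2 of them members, had an unadjusted p under 0.05. For H3K4Me3, 2 genes were called (0.0468%), neither a member, and 176 genes (4.12%), 2 of them members, had an unadjusted p under 0.05. For the difference between the H3K4Me3 and the H3 change, 0 genes were called (0%), and 111 genes (2.60%), 0 of them members, had an unadjusted p under 0.05. With the slide, that is the replicate number, as a block, 203 genes were called for H3K4Me3 (4.75%), 164 higher in +N (3.84%) and 39 lower (0.912%). Of the members, 2 of 67 (rpl501 and rpl1802) were among those higher, 0 among those lower, a share near that of all genes. For H3 the block gave 2 genes (0.0468%) and 0 members, and for the difference between the marks 0 genes. Without a block the standard error of a member's H3K4Me3 change was about 0.43, so that changes near the median of the members were not detectable with 2 arrays a group.

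The direction was uneven all the same. The H3K4Me3 change, +N minus −N, had a median of 0.40 over the members and 0.25 over all genes, with 0.20 at members on slide 1 and 0.52 on slide 2 (all genes 0.12 on slide 1 and 0.37 on slide 2). It was above 0 in 56 of 67 members (83.6%), against 75.4% of all genes. In 35 members (52.2%) both +N arrays lay above both −N arrays, against 29.4% of all genes, and in 1 (1.5%) below, against 3.70% of all genes. In a window from 500 bp upstream to 1000 bp downstream the change was above 0 in 67.2% of members and 67.7% of all genes. Centring decides where 0 lies: with arrays centred on their 10th percentile the medians were 0.62 at members and 0.47 at all genes, and with quantile normalization 0.13 at members and 0.05 at all genes. The excess of members over all genes was 0.15, against 0.026 in that wider window and −0.005 without the array H3K4Me3 −N replicate 2. No test was made of it.

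For H3 the median change was 0.06 at members and −0.01 at all genes, with −0.02 at members on slide 1 and 0.14 on slide 2. It was above 0 in 47 of 67 members (70.1%), against 46.9% of all genes. With 10th-percentile centring these shares were 89.6% of members and 76.8% of all genes. In a window from 500 bp upstream to 1000 bp downstream they were 52.2% of members and 43.9% of all genes. With normexp they were 56.7% and 45.1%, and with outliers kept 61.2% and 47.2%. In 17 members (25.4%) both +N arrays lay above both −N arrays (12.7% of all genes), and in 4 (6.0%) below (13.6% of all genes). Over the members, the H3 differences on the slides had r = 0.01 and those of H3K4Me3 r = 0.40 (rho = 0.31). On both slides the H3K4Me3 difference was above 0 in 47 members (70.1%), against 53.4% of all genes, and the H3 difference in 21 (31.3%), against 21.0% of all genes.

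**Figure D4:**
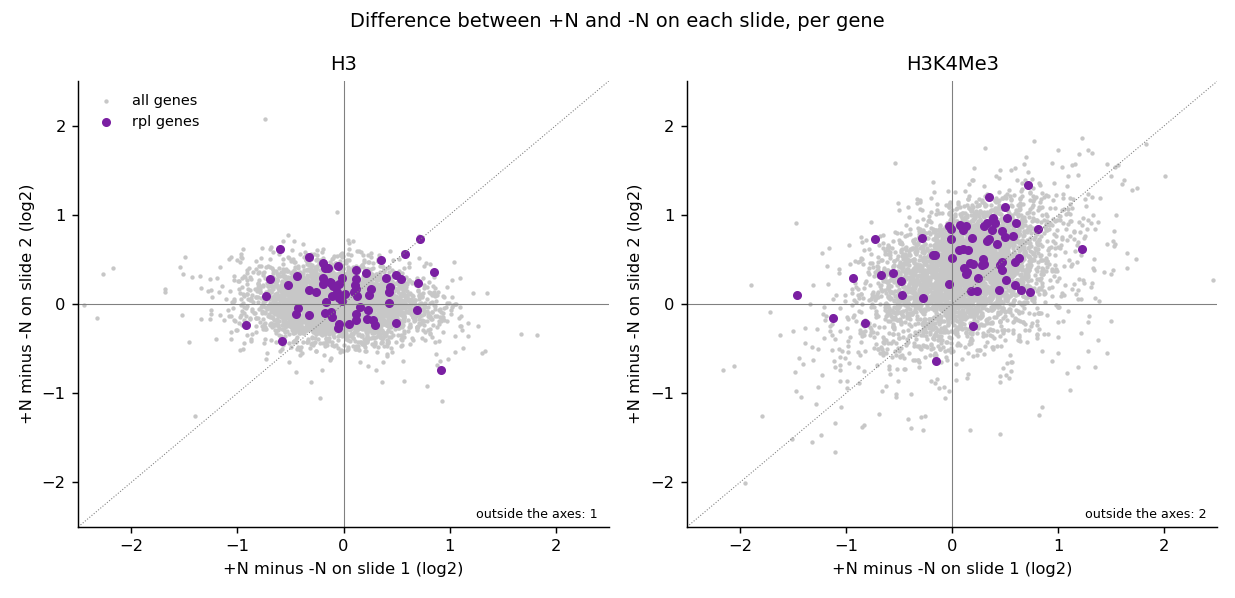
Difference between +N and −N (log2) on slide 2 (vertical axes) against slide 1 (horizontal axes) for H3 and H3K4Me3. Grey points are all genes, purple points the 67 rpl genes, and the dotted line marks equal differences. For H3K4Me3, 47 purple points (70.1%, all genes 53.4%) lie above 0 on both slides, for H3 21 (31.3%, all genes 21.0%).

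Among the members with the largest H3K4Me3 changes upward, all 4 array pairs going that way, stood genes of several parts of the subunit. rpl1802, for eL18, had 3.11 and 3.19 in +N and 1.89 and 2.57 in −N cells, a change of 0.92 (SE 0.43). The adjusted p by limma was 0.97, and 0.037 with the slide as a block. Its promoter, shown above, carries both HomolD and HomolE, and 1 of its 3 probes matches another place in the genome over at least 40 bases at 85% identity or more. rpl701 had 3.58 and 3.58 in +N and 2.78 and 2.74 in −N cells, a change of 0.82 (SE 0.43). rpl4301, for the zinc-binding eL43, had 2.06 and 2.65 in +N and 1.57 and 1.57 in −N cells, a change of 0.79 (SE 0.43). The 2 probes of rpl4301 were not well above background on slide 1 in either condition, and on slide 2 the difference was 1.08. In rpl701 and rpl4301 the groups were apart by the way they were chosen, and neither was called, with an adjusted p of 0.97 by limma. rpl3601, for eL36, had 2.89 and 3.50 in +N and 2.55 and 2.31 in −N cells, a change of 0.77 (SE 0.43). rpl1102, for uL5, a partner of uL18 on the 5S ribosomal RNA, had 2.33 and 2.52 in +N and 1.73 and 1.61 in −N cells, a change of 0.75 (SE 0.43).

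rpl501, whose values were given above, had a change of 1.03 (SE 0.46), with an adjusted p by limma of 0.97 and of 0.017 with the slide as a block. The +N replicate 1 value of 0.87 lay below the −N replicate 2 value of 0.90, so its groups overlapped, and the arrays of slide 1 differed by 0.72 and those of slide 2 by 1.34. It rests on 1 probe, and H3 at that probe had a change of 0.72, the largest of any member (adjusted p = 1.00 by limma, with or without the block), so that the H3K4Me3 change exceeded the H3 change by 0.30. The H3 signal of that probe was not well above background in −N replicate 1. The other gene for uL18, rpl502, had an H3K4Me3 change of 0.52. rpl901 was the only member with all 4 pairs downward, at 1.41 and 1.32 in +N and 2.24 and 1.54 in −N cells, a change of −0.52 (SE 0.43; adjusted p = 0.97 by limma).

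For H3, the largest changes upward among members with all 4 array pairs going that way were as follows. rpl802, whose values were given above, had a change of 0.61 (SE 0.22). rpl1002 had −0.97 and −0.66 in +N and −1.55 and −1.22 in −N cells, a change of 0.57 (SE 0.22). These were the members with an unadjusted p under 0.05, both rest on 1 probe, and the adjusted p by limma was 1.00. rpl2301, for uL14 at the face between the subunits, had −0.28 and −0.16 in +N and −0.98 and −0.39 in −N cells, a change of 0.46. rpl301, for uL3 near the peptidyl transferase centre, had −0.47 and −0.62 in +N and −0.82 and −1.12 in −N cells, a change of 0.42. rpl42, for eL42 by the exit site for transfer RNA, had −0.62 and −0.75 in +N and −1.16 and −1.03 in −N cells, a change of 0.41. That the groups did not overlap in these genes follows from the way they were chosen. Among members with all 4 pairs downward stood first rpl2701, for eL27, at −1.49 and −0.82 in +N and −0.57 and −0.59 in −N cells, a change of −0.58 (SE 0.25), followed by rpl44 at −0.14, rpl3402 at −0.13 and rpl2302 at −0.12, all with an adjusted p of 1.00 by limma.

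The other lists gave like counts. No small subunit gene was called without the block and 2 of 48 were higher in +N for H3K4Me3 with it. With the block 1 of 36 mitochondrial ribosomal protein genes was higher, and 0 of 6 stalk genes, 0 of 36 assembly factors, 0 of 16 TORC1 genes and 0 of 2 regulators (rrn7 and fhl1) were called. The median H3K4Me3 change was 0.40 for small subunit genes, 0.41 for stalk genes, 0.18 for mitochondrial ribosomal proteins, 0.15 for assembly factors and 0.24 for TORC1 genes.

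Paralogues were compared last, in the 26 families in which 2 members had a value. In each pair the higher gene was named by its mean over the same 4 arrays, so its mean difference is above 0 by construction. No count over unrelated pairs of genes was made to set beside the counts below. For H3K4Me3 the same gene of the pair was higher on all 4 arrays in 19 families, the median difference was 0.61, and in 7 it was at least 1. For H3 this held in 12 families, with a median difference of 0.31 and 1 family at 1 or more. In 17 of 26 families the same gene was higher for both antibodies. Since 4 arrays cannot give a sign-flip p under 0.125, no test was made. A pair compares different probes, and with the correction for probe distance the gene named higher before was so on all arrays in 19 of 26 families for H3K4Me3, 16 of them the same families, at a median difference of 0.55. For H3 this held in 4 of 26, 3 of them the same, at a median of 0.07, and in 1 more family the sign was reversed on all 4 arrays. With probes from the 5′ end to 500 bp downstream only, 7 of 19 families kept the same gene higher on all arrays for H3K4Me3 and 2 of 19 for H3, with medians of −0.08 and −0.02. The pairs for uL11, uL16 and uL18 are not among these 19, since rpl1201, rpl1001 and rpl501 have no probe in that stretch. For most of the pairs that could be compared there, the H3K4Me3 order therefore did not hold on all arrays.

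**Figure D5:**
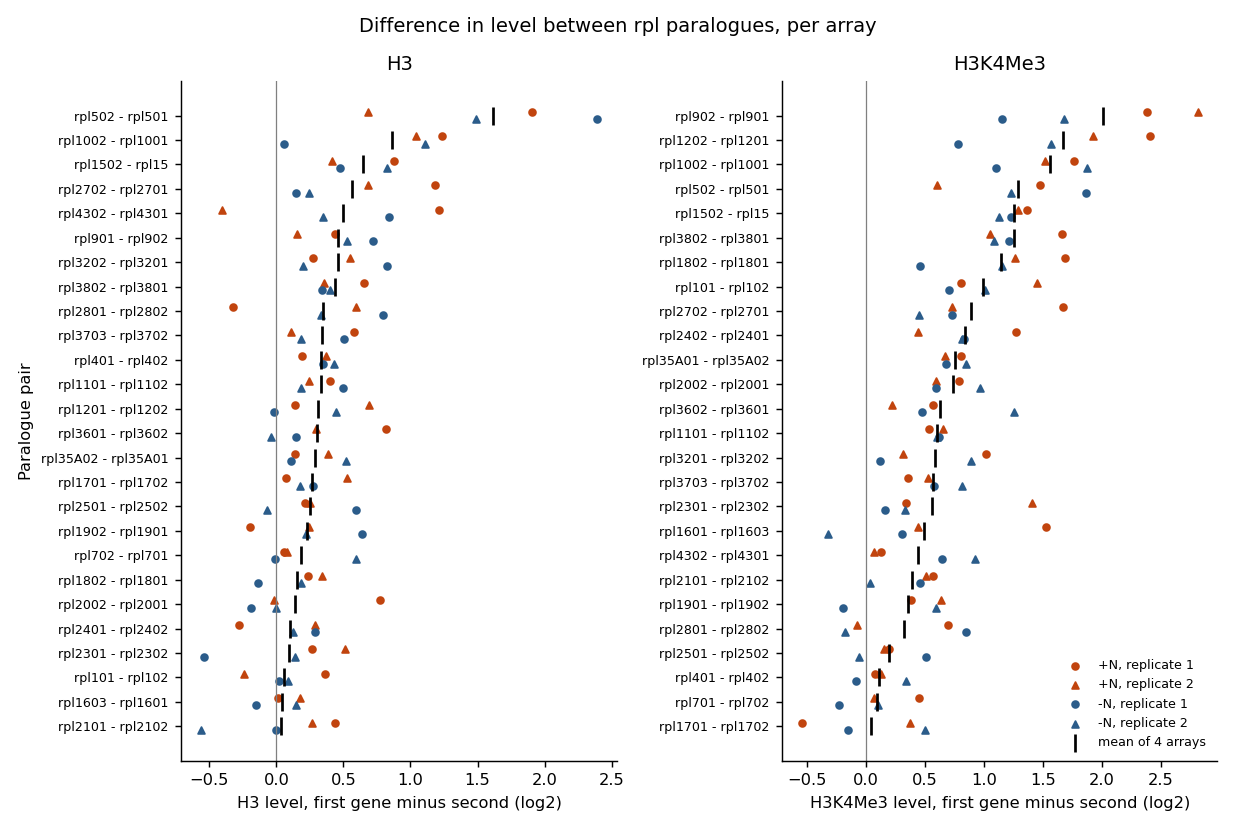
Difference in level between the genes of each of 26 paralogue pairs (rows, first gene minus second; log2, horizontal axes) on each array, for H3 and H3K4Me3. Orange marks are +N, blue marks −N, circles replicate 1, triangles replicate 2, and the black bar is the mean of 4 arrays. The first gene is the one with the higher mean over the 4 arrays. For H3K4Me3 all 4 marks lie right of 0 in 19 pairs, for H3 in 12.

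The pair for uL6 differed most. rpl902, at 3.80 and 4.13 in +N and 3.39 and 3.22 in −N cells, exceeded rpl901, at 1.41 and 1.32 in +N and 2.24 and 1.54 in −N cells, by 2.01 in H3K4Me3. The difference was 2.60 ± 0.30 in +N and 1.42 ± 0.37 in −N cells (SD, n = 2), and 1.83 after the correction for probe distance. Of the 3 probes of rpl902, those 243 and 72 bp upstream also serve rpl35, so these values hold signal shared with that gene. These are the genes of the first pair of promoters shown, of which only that of rpl901 holds HomolD close to its 5′ end. Their coding sequences are 84.6% identical. At nearly equal distance the probe 221 bp downstream of rpl902 read 4.51 and 4.54 in +N and 3.49 and 3.92 in −N cells, and the probe 243 bp downstream of rpl901 read 2.61 and 2.39 in +N and 3.38 and 1.67 in −N cells. In H3 rpl901 was higher by 0.46, and with the correction lower, at −0.20.

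The genes for uL11, rpl1202 and rpl1201, have coding sequences 99.6% identical and differed by 1.67, with rpl1202 at 2.31 and 2.79 in +N and 2.15 and 2.34 in −N cells. After the correction for probe distance 0.89 remained. The rpl1201 probes were not well above background on slide 1, and on slide 2 the difference was 1.92 in +N and 1.57 in −N cells. None of their probes has a near copy elsewhere in the genome. The genes for uL16 are 97.9% identical, and rpl1002, at 2.59 and 3.04 in +N and 1.96 and 2.53 in −N cells, exceeded rpl1001 by 1.56 for H3K4Me3 and by 0.86 for H3. Each rests on 1 probe, at 1 bp downstream in rpl1002 and 81 bp upstream in rpl1001. After the correction the differences were 1.16 for H3K4Me3 and 0.59 for H3.

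For uL18, rpl502, at 2.34 and 2.84 in +N and 2.01 and 2.13 in −N cells, exceeded rpl501 by 1.29 in H3K4Me3, and by 1.62 in H3, where rpl502 had 0.13 and −0.23 in +N and −0.10 and −0.16 in −N cells. After the correction these were 1.46 for H3K4Me3 and 0.94 for H3. In −N replicate 1, where the uncorrected H3 difference was 2.39, the signal of rpl501 was not well above background. The other large H3 differences were 0.65 for rpl1502 over rpl15 and 0.56 for rpl2702 over rpl2701, which shrank to 0.26 and 0.15 with the correction. Across the 26 families the +N minus −N changes of the paralogues differed by a median of 0.27 for H3K4Me3 and 0.20 for H3. Only in the uL6 pair did the H3K4Me3 changes differ by over 1, at 0.66 for rpl902 and −0.52 for rpl901, by 1.23 on slide 1 and 1.13 on slide 2. That difference was not tested.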

How the data were processed

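Two-colour Agilent arrays held ChIP DNA, amplified with T7 RNA polymerase, in the red and input DNA in the green channel on all 8 arrays per the labels, and a dye effect cannot be told apart from enrichment. The intensity values deposited by the authors were processed signals from Agilent Feature Extraction 10.7.3.1, background-subtracted, detrended and dye-normalized with 1 linear factor, and the authors also deposited log2 ratios of the same signals.

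Of 42641 nuclear probes, 5402 (12.7%) marked as outliers on any array were left out, leaving 37239. Log2 red over green was centred on each array's median. The probe build is not stated: the correlation of probe length with reference GC was −0.57 in the part used, and −0.03 beyond 3.75 Mb of chromosome I, which was left out. Gene values were tested with limma 3.58.1 in R 4.3.3 (two-sided, Benjamini-Hochberg over 4276 genes), tested on simulated data first. The members and lists were chosen with earlier results of these data known. Named were, per antibody, the 5 largest changes each way with all array pairs agreeing, the 4 highest and lowest levels, the 4 largest paralogue differences, and any called member. Alternatives covered centring, normalization, background, probe choice, windows and left-out arrays, and normexp used median signals. The number of arrays limits the precision.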

Additional observations from a re-analysis of the deposited data

How the results depend on the processing

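No member was called for H3, or for the difference between the marks, under any alternative tried. For H3K4Me3 only the fit with the replicate number (the slide) as a block called any, 2 members, with 203 genes called in all. Nothing in the labels says that a number marks a shared culture. The deviations of same-numbered arrays from their group means had r = 0.15 for H3 and 0.48 for H3K4Me3 over 4276 genes, with 2 pairs each. With 1 array left out the counts were 0 to 0, the median H3 change of members ran from 0.027 to 0.14 and the median H3K4Me3 change from 0.20 to 0.59. The median H3 change was 0.23 with 10th-percentile centring, and the median H3K4Me3 change 0.13 with quantile normalization, which gives all arrays of an antibody 1 spread.

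The H3 level of members relative to all genes moved most. In +N cells it was 0.13 with probes from 0 to 500 bp downstream, −0.11 from 500 bp upstream to 1000 bp downstream, −0.0064 with at least 3 probes, −0.051 with background-subtracted signals, −0.0501 without dim probes, −0.027 with normexp, 0.016 with normexp and loess, and −0.11 without probes alike in sequence to other places. In −N cells it was 0.066 from 0 to 500 bp downstream, −0.085 with at least 3 probes and also without dim probes, −0.10 with normexp and loess, −0.17 with outliers kept or with the authors' table, and −0.18 without probes alike in sequence. Left-out arrays gave −0.09 to −0.06 in +N and −0.14 to −0.11 in −N cells.

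The H3K4Me3 excess of members stayed above 0 throughout. In +N cells it was 0.85 from 0 to 500 bp downstream, 0.53 with normexp, 0.52 with outliers kept, with the authors' table and without probes alike in sequence, and 0.57 to 0.69 with an array left out. In −N cells it was 0.62 from 0 to 500 bp downstream, 0.41 with background-subtracted signals, 0.59 without dim probes, 0.39 with normexp and loess, 0.53 with the distance correction, added after seeing the data, and 0.42 to 0.47 with an array left out.

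Families with the same gene higher in H3 on every array numbered 2 from 0 to 500 bp downstream (median difference −0.019), 5 with at least 3 probes (of 11 families), 7 without dim probes, 6 with outliers kept or with the authors' table, 4 with the distance correction, and 14 to 17 over the arrays left. For H3K4Me3 they numbered 7 from 0 to 500 bp downstream (median −0.077), 8 of 11 with at least 3 probes, and 19 to 22 over the arrays left. Small changes turned round in a few genes: for H3, rpl44 to 0.026 with 10th-percentile centring, 0.32 from 0 to 500 bp downstream and 0.18 with the median over probes, rpl3402 to 0.032 with that centring and 0.13 from 500 bp upstream to 1000 bp downstream, and rpl2302 to 0.042 with that centring, and for H3K4Me3, rpl901 to 0.10 with normexp. HomolD with 1 mismatch stood at 98.5% of members and 16.3% of all genes. The causes were not tested, except that fewer families were compared in the shorter window and with at least 3 probes. The number of arrays, 2 a group, limits the precision.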
